A study of Mus musculus with 10 samples.

Results

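The chemokine genes Cxcl1, Cxcl2, Cxcl5, Cxcl10, Cxcl12, Cxcl15, Cxcl16, Cx3cl1, Ccl2 and Ccl20 were examined in sorted lung epithelial cells of newborn mice. They were picked by gene symbol as chemokines that lung epithelium can make. All 10 were measured, each by 1 probe set that carried no other symbol, among 22180 named genes on the array. The study set 5 arrays of SP-C+ cells against 5 arrays of Axin2+ cells, all labelled as type 2 alveolar epithelial cells (AEC2s) from postnatal day 4 lungs. SP-C+ cells came from SftpcCreERT2-R26REYFP mice, in which a tamoxifen-dependent Cre under the surfactant protein C gene turns on YFP, and were sorted on YFP after 24 h of lineage tracing. Axin2+ cells came from Axin2CreERT2-TdTom mice, in which Axin2, a target gene of Wnt signalling, drives the Cre and the reporter is TdTomato. They were sorted as positive for TdTomato and the epithelial protein EpCAM, and negative for the endothelial protein CD31 and the leukocyte protein CD45. Both lines had a mixed background of C57BL/6, 129S6 and CD-1 and the labels list no treatment. A description shared by all samples also mentions adult cells, but titles, ages and design give day 4. No lineage tracing time is listed for the Axin2+ cells, so it may differ from that of the SP-C+ cells. Mouse line, reporter and sort gate differed along with the cell label, so these cannot be told apart.

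Chemokines are small secreted proteins that direct the movement of leukocytes through receptors coupled to G proteins. In the alveolus, type 2 cells release several of them upon infection or injury, and many of their genes are switched on by NF-kappaB downstream of interleukin 1, tumour necrosis factor and Toll-like receptors, or by interferons. Others are made steadily: Cxcl15, known as lungkine, is a constitutive product of lung epithelium, and Cxcl12 has homeostatic roles in many tissues. Cx3cl1 and Cxcl16 differ from the rest in being made as membrane-anchored proteins that proteases can shed.

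Values are log2 expression as deposited, compared between groups with limma over all named genes. A difference passed, or was called, below an adjusted p of 0.05 (Benjamini-Hochberg), and differences are Axin2+ minus SP-C+ with the moderated standard error (SE). Probe sets differ in how brightly they report, so the level of 1 gene is not ranked against that of another. The percentile of a gene's mean brightness among all genes is given only to show which signals were dim. Array medians lay between 5.89 and 5.97, and values ran from 1.69 to 14.16.

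The cell labels were compared with marker genes. The lists of 12 AEC2, 12 type 1 cell (AEC1) and 11 measured ciliated cell markers had mean log2 levels of 13.05 to 13.10, 8.99 to 9.44 and 5.76 to 5.97 in SP-C+ arrays. In Axin2+ arrays the corresponding ranges were 12.81 to 12.94, 11.43 to 11.81 and 8.04 to 8.36. All 12 AEC1 and 10 of 11 ciliated markers were called higher in Axin2+ arrays, as were 6 of 12 club cell markers. The club cell list mean was 7.28 to 7.60 in SP-C+ against 7.94 to 8.47 in Axin2+ arrays. Over all genes 8.61% were called higher and 17.6% in either direction. Of the endothelial list 0 of 12 members were called in limma (adjusted p 0.0655 or more, with 2 at an unadjusted p under 0.05), and Pecam1, which encodes CD31, lay between 6.47 and 8.11 in SP-C+ and between 6.59 and 7.03 in Axin2+ arrays. Ptprc, which encodes CD45, was dim throughout (3.97 to 4.81 and 3.81 to 4.24). Sftpc, whose promoter drives the Cre of the SP-C+ line, was 13.97 to 14.05 in SP-C+ and 14.08 to 14.15 in Axin2+ arrays and did not pass (adjusted p = 0.324). It was the 1 AEC2 marker of 12 with a positive difference. Of the AEC2 list 0 were called higher and 2 lower in limma (16.7% called), with a median difference of -0.18. At an unadjusted p under 0.05, 7 of the AEC2 markers were lower and 0 higher. Axin2 itself was lower in Axin2+ arrays (-0.53 ± 0.08 SE, adjusted p = 3.28e-04 in limma), at 8.38 to 8.53 in SP-C+ and 7.82 to 8.12 in Axin2+ arrays, opposite to what the label names; groups were kept as labelled. In such RNA from many cells, a larger share of a cell type and more RNA per cell cannot be told apart. The part of the raised AEC1, ciliated and club cell markers in the chemokine results was not tested.

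Of the 10 chemokine genes, 1 was higher and 1 lower in Axin2+ arrays and 8 did not pass the threshold. Cxcl1, a neutrophil attractant, was 1.89-fold lower, and Cx3cl1, the membrane-anchored fractalkine, was 1.43-fold higher. Among all 22180 genes 17.6% were called, 8.61% as higher and 8.95% as lower, so 2 of 10 is close to the background. In 3 members the groups did not overlap (Cxcl1, Cxcl12 and Cx3cl1), and 15.0% of all genes showed the same. The median difference of the 10 genes was 0.08, against -0.04 over all genes. Their absolute differences had a median of 0.34 against 0.13.

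**Figure D1:**
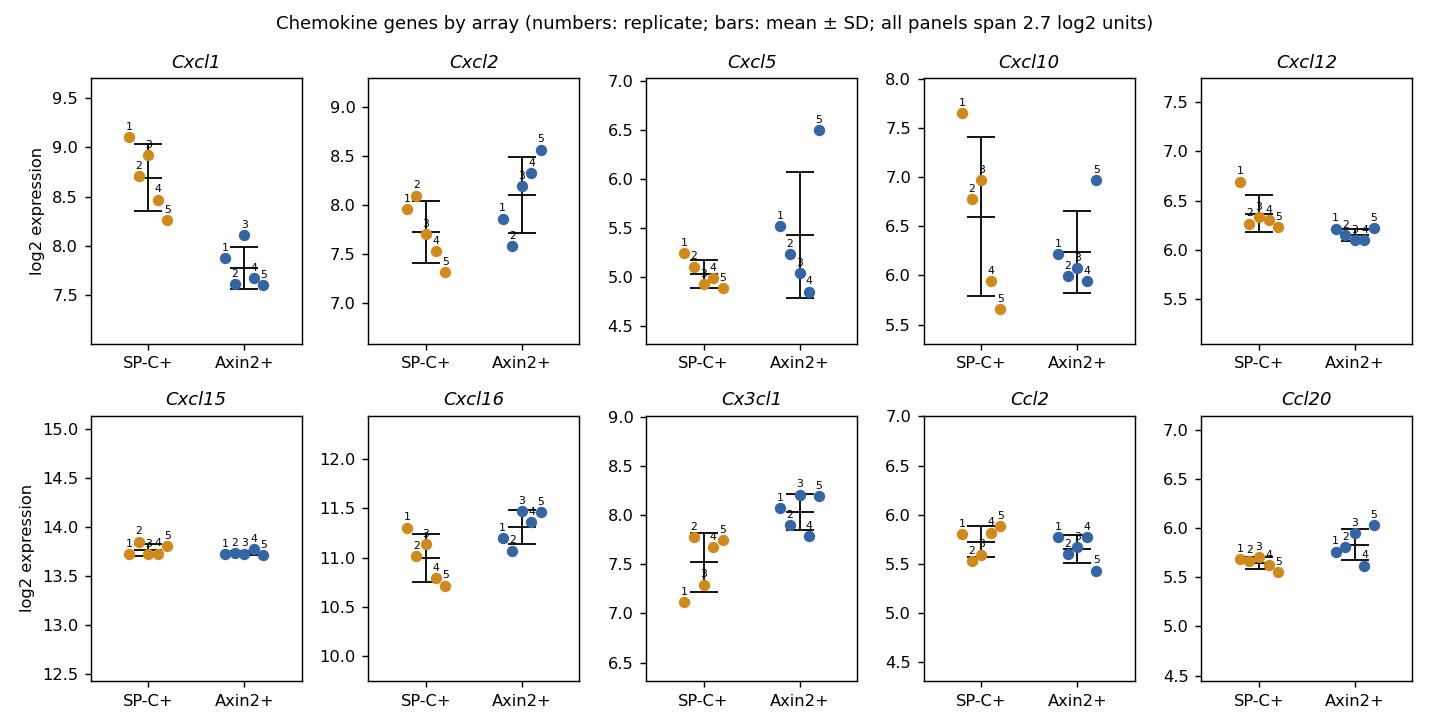
Log2 expression (vertical axis) of the 10 chemokine genes on each array, SP-C+ in orange and Axin2+ in blue, with the replicate number beside each point and bars for mean ± SD (n = 5). Every panel spans the same number of log2 units; Cxcl1 separates downwards and Cx3cl1 upwards in Axin2+ arrays, and Cxcl15 lies between 13.71 and 13.85 on all arrays.

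Promoters are shown for 3 members that carry the NF-kappaB consensus and varied between arrays, as described further on. RefSeq promoter windows on build GRCm38.p6, from 250 bases before to 50 after the start of the gene, matched 7 of the 10 members. Cxcl5, Cxcl16 and Ccl2 had no window and were not searched. A match to the NF-kappaB consensus on either strand was present in 4 of these 7 (Cxcl1, Cxcl2, Cxcl10 and Ccl20), and 4.51% of all 32851 such windows hold one. In Cxcl1 and Cxcl2 the capitals are a pair of overlapping matches, 1 on each strand, and in Cxcl10 they are 2 separate matches on the strand shown. The 250 bases before the start are Cxcl1 at chr5:90890995-90891244 (plus strand), Cxcl2 at chr5:90903649-90903898 (plus strand) and Cxcl10 at chr5:92348890-92349139 (minus strand), each written 5′ to 3′ on the strand of its gene.
Cxcl1: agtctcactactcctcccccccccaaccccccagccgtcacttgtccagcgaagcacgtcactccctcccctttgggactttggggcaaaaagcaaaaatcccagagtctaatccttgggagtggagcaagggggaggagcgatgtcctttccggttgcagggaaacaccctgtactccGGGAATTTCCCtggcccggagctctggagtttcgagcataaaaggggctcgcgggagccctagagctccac
Cxcl2: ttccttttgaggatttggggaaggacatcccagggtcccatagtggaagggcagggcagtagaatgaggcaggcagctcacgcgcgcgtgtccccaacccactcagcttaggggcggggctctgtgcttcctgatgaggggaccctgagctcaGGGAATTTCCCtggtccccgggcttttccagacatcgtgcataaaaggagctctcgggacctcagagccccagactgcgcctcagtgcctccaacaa
Cxcl10: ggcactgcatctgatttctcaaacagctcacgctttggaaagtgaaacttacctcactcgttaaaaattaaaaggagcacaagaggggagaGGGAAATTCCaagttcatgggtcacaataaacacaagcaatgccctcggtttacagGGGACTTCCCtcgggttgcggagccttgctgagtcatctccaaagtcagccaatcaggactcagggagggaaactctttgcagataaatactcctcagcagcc

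The NF-kappaB matches began 71 bases before the start of Cxcl1, 97 before that of Cxcl2, and 159 and 103 before that of Cxcl10. The longest run of bases shared by the Cxcl1 and Cxcl2 windows was 20 bases long and lay after the start of both genes. The Cxcl10 window also held GAAANNGAAA, the core of the interferon-stimulated response element, as did 3.44% of all windows on either strand. Among the 7 windows it was the 1 with such a match. Among the 7, TATAAA was found in the windows of Cxcl15 and Cx3cl1, and in 13.6% of all windows. These matches are descriptions of letters and not measured binding sites.

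The neutrophil attractants Cxcl1, Cxcl2, Cxcl5 and Cxcl15 act through the receptor CXCR2 or are grouped with ligands that do. All 4 lie in a cluster of 7 neighbouring chemokine genes on chromosome 5, which runs Cxcl5, Ppbp, Pf4, Cxcl3, Cxcl15, Cxcl1 and Cxcl2 in RefSeq order. Cxcl1 and Cxcl2 are neighbours with closely related products. Of this pair Cxcl1 was called, and Cxcl2 was not.

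Cxcl1 measured 9.11, 8.71, 8.92, 8.47 and 8.26 in SP-C+ replicates 1 to 5, and 7.88, 7.61, 8.11, 7.67 and 7.60 in Axin2+ replicates 1 to 5. Every Axin2+ array lay below every SP-C+ array, with the nearest values 8.11 and 8.26. The group means were 8.69 ± 0.34 and 7.77 ± 0.22 (SD, n = 5). The difference was -0.92 ± 0.16 SE (adjusted p = 0.00118 in limma), and the two-sided exact permutation p was 0.00794, the smallest that 5 against 5 arrays can give. The call held in all 22 alternatives, with adjusted p between 1.815e-04 and 0.0307, and the smallest difference was -0.59 without SP-C+ replicates 1, 2 and 3.

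Cxcl2 measured 7.96, 8.10, 7.70, 7.53 and 7.31 in SP-C+ arrays and 7.86, 7.58, 8.19, 8.32 and 8.57 in Axin2+ arrays. The groups overlapped, with Axin2+ replicates 3, 4 and 5 above all SP-C+ arrays. The means were 7.72 ± 0.32 and 8.11 ± 0.39 (SD), a difference of 0.38 ± 0.19 SE that did not pass (adjusted p = 0.200 in limma).

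As a description, with no test, Cxcl2 minus Cxcl1 was taken within each array, a quantity chosen after both genes had been seen. Its size mixes the brightness of 2 probe sets, so it is read only for how it varied between arrays. The SP-C+ arrays gave -1.15, -0.61, -1.22, -0.94 and -0.94, and the Axin2+ arrays gave -0.01, -0.03, 0.09, 0.66 and 0.97. The group means were -0.97 ± 0.24 and 0.33 ± 0.45 (SD, n = 5), which are 1.31 log2 units apart, of which Cxcl1 alone makes up 0.92 and Cxcl2 0.38. How far these probes respond to each other's transcript was not tested.

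Cxcl5, a neutrophil attractant of epithelial cells, was dim, at a brightness percentile of 32.8. It measured 5.24, 5.11, 4.93, 4.99 and 4.89 in SP-C+ arrays and 5.52, 5.24, 5.04, 4.86 and 6.50 in Axin2+ arrays. The groups overlapped and Axin2+ replicate 5 was the high array. The difference of 0.40 ± 0.24 SE did not pass (adjusted p = 0.318 in limma) and was 0.13 without that array.

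Cxcl15 had the narrowest range over the arrays of the 10 genes. It lay between 13.72 and 13.85 in SP-C+ arrays (median 13.73) and between 13.71 and 13.77 in Axin2+ arrays (median 13.73), near the top of the range of the arrays. Whether so bright a signal still follows changes in RNA was not tested, so the narrow range is not read as steady expression. The means were 13.77 ± 0.06 and 13.73 ± 0.02 (SD, n = 5), and the difference of -0.03 ± 0.06 SE did not pass (adjusted p = 0.806 in limma). Its sign turned under quantile normalization (0.06, adjusted p = 0.614).

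Cxcl10, which recruits activated T cells through CXCR3 and is induced by interferon, spread most among the SP-C+ arrays. It measured 7.65, 6.77, 6.97, 5.94 and 5.66 in SP-C+ replicates 1 to 5 and 6.22, 5.99, 6.07, 5.95 and 6.97 in Axin2+ replicates 1 to 5. The groups overlapped, SP-C+ replicates 1, 2 and 3 were high beside 4 and 5, and Axin2+ replicate 5 stood above the other Axin2+ arrays. The means were 6.60 ± 0.81 and 6.24 ± 0.42 (SD), and limma gave -0.36 ± 0.33 SE between them (adjusted p = 0.529). Its direction depended on the SP-C+ arrays used: -0.89 without replicates 4 and 5, where it passed (adjusted p = 0.0294), and 0.44 without replicates 1, 2 and 3 (adjusted p = 0.318). Both splits were chosen after the values were seen. Replicates 4 and 5 were the lowest SP-C+ arrays for Cxcl10, so passing without them is no support for a fall. No direction is therefore given for Cxcl10.

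Cxcl12, the ligand of CXCR4, was slightly dimmer than the median gene, at a brightness percentile of 48.6. It measured 6.69, 6.27, 6.33, 6.30 and 6.23 in SP-C+ arrays and 6.21, 6.14, 6.10, 6.09 and 6.22 in Axin2+ arrays. The groups did not overlap, but the nearest values, 6.23 and 6.22, were almost equal, and SP-C+ replicate 1 was the high array. The difference of -0.21 ± 0.09 SE did not pass over all genes (adjusted p = 0.151 in limma), although the exact permutation p was 0.00794. Without SP-C+ replicate 1 the difference was -0.13 (adjusted p = 0.258). That array also had the highest mean of the endothelial markers, 7.66 against 6.57 to 7.09 in the other SP-C+ and 6.68 to 6.91 in the Axin2+ arrays. Its leukocyte marker mean was 6.47 against 6.15 to 6.20 in the other SP-C+ and 6.16 to 6.30 in the Axin2+ arrays, and their part in the Cxcl12 values was not tested.

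Both membrane-anchored chemokines were brighter on average in Axin2+ arrays, but they differed in how firmly. Cx3cl1, the ligand of CX3CR1 on monocytes and other leukocytes, measured 7.12, 7.78, 7.29, 7.68 and 7.74 in SP-C+ and 8.07, 7.90, 8.21, 7.78 and 8.20 in Axin2+ arrays. The groups did not overlap, although the lowest Axin2+ array (replicate 4, 7.784) and the highest SP-C+ array (replicate 2, 7.779) were almost level. The means were 7.52 ± 0.30 and 8.03 ± 0.19 (SD, n = 5). They differed by 0.51 ± 0.14 SE (adjusted p = 0.0228 in limma), with an exact permutation p of 0.00794. The lowest array, SP-C+ replicate 1, was the one with the highest endothelial marker mean, 7.66. Without that array the call was kept (0.41, adjusted p = 0.0431 in limma). The call was lost without Axin2+ replicate 3 (adjusted p = 0.0632), Axin2+ replicate 5 (0.0575) or SP-C+ replicate 3 (0.0582). Without SP-C+ replicates 1, 2 and 3 the difference was 0.32 (adjusted p = 0.150).

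Cxcl16, a scavenger receptor and ligand of CXCR6, was among the brightest genes (brightness percentile 97.5). It measured 11.31, 11.01, 11.14, 10.79 and 10.71 in SP-C+ arrays and 11.20, 11.07, 11.47, 11.37 and 11.46 in Axin2+ arrays. The groups overlapped, with SP-C+ replicates 1 and 3 inside the Axin2+ range. The difference of 0.32 ± 0.12 SE did not pass (adjusted p = 0.0955 in limma). It passed when SP-C+ replicate 1 was left out (0.40, adjusted p = 0.0346), and when replicates 1, 2 and 3 of that group were (0.56, adjusted p = 0.0181). Leaving out these 3 was chosen after the values were seen. They were the highest SP-C+ arrays for Cxcl16, so passing without them is no support for a rise.

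The 2 CC chemokines, which attract monocytes (Ccl2) and cells bearing CCR6 (Ccl20), were dim. Ccl2 lay between 5.53 and 5.88 in SP-C+ (median 5.80) and between 5.43 and 5.77 in Axin2+ arrays (median 5.67), with overlapping groups, and limma gave -0.08 ± 0.10 SE between them (adjusted p = 0.660). Ccl20 lay between 5.56 and 5.70 (median 5.67) and between 5.62 and 6.03 (median 5.80), with Axin2+ replicate 4 the array inside the SP-C+ range. Its difference was 0.19 ± 0.09 SE (adjusted p = 0.172 in limma).

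**Figure D2:**
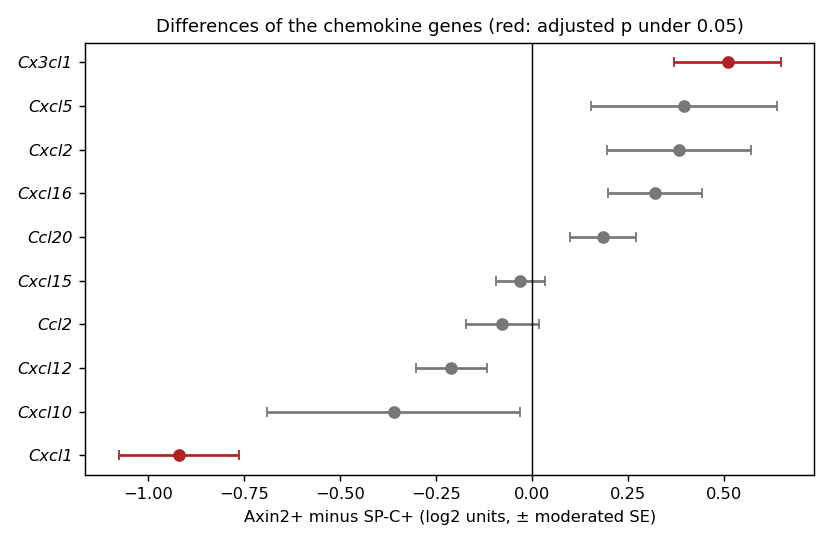
Differences of the 10 chemokine genes between the groups, Axin2+ minus SP-C+ in log2 units, with bars for the moderated SE; red marks an adjusted p under 0.05. Cxcl1 at -0.92 and Cx3cl1 at 0.51 are the 2 genes past the threshold, and 5 of the 10 lie above 0.

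Several of these chemokines varied together from array to array within the groups. After each group's mean was subtracted, Cxcl16 correlated with Cxcl10 at r = 0.84, with Cxcl2 at 0.80 and with Cxcl1 at 0.78, and Cxcl10 with Cxcl2 at 0.67 and Cxcl1 at 0.66, over the 10 arrays. Cxcl1 and Cxcl2 correlated less, at 0.38. These are descriptions over few arrays, whose genes share RNA and processing. A list of 29 measured NF-kappaB and cytokine genes had mean levels of 8.30, 8.25 and 8.39 in SP-C+ replicates 1, 2 and 3, and 8.03 and 7.89 in replicates 4 and 5. In Axin2+ replicates 1 to 5 the means were 7.90, 7.86, 8.05, 8.05 and 8.31. Against this list mean, centred in the same way, Cxcl16 gave r = 0.87, Cxcl2 0.84, Cxcl10 0.84 and Ccl20 0.62. Cxcl1 gave 0.52, Cxcl5 0.50 and Cxcl12 0.39, while Cxcl15 gave -0.24, Cx3cl1 -0.26 and Ccl2 -0.70. Other lists gave values as high for some of these genes: the chemokine receptors gave 0.82 with Cxcl1 and 0.85 with Cxcl16, the leukocyte markers gave 0.83 with Cxcl10, and the endothelial markers gave 0.73 with Cxcl1 and 0.74 with Cxcl10. Il6, a cytokine gene of that list, was 9.17, 9.38 and 9.89 in SP-C+ replicates 1, 2 and 3 but 7.54 and 7.17 in replicates 4 and 5 (difference between groups -1.11 ± 0.46 SE, adjusted p = 0.129 in limma). It was picked here after its values were seen.

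**Figure D3:**
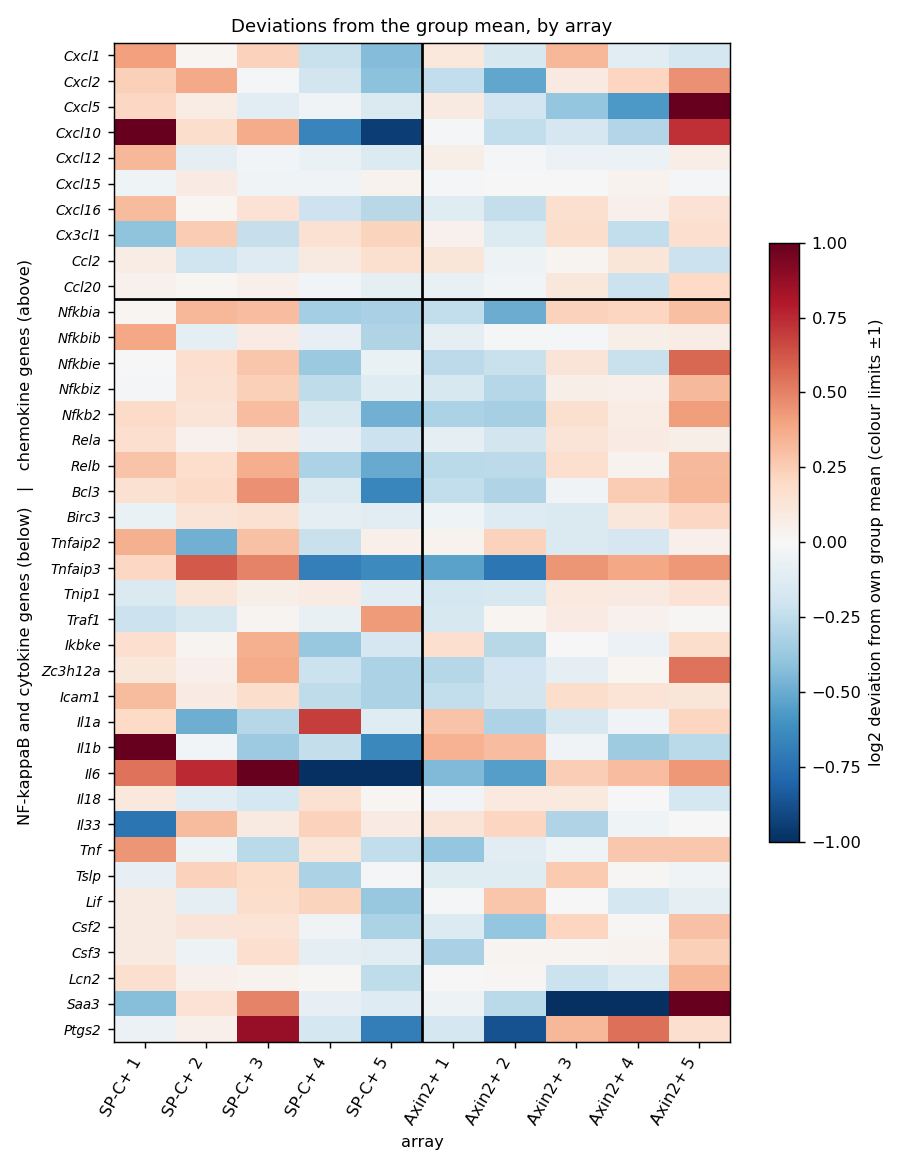
Deviation of each gene from its own group mean (colour, log2 units, limits ±1) on each array (columns), for the 10 chemokine genes (above the line) and 29 NF-kappaB and cytokine genes (below it). SP-C+ replicates 4 and 5 and Axin2+ replicates 1 and 2 are mostly blue for Cxcl2, Cxcl16, Nfkbia, Relb, Tnfaip3 and Il6, which were picked after their values were seen. Other genes differ: Ccl2 and Il33 lie above their group mean in SP-C+ replicates 4 and 5, and Il1b in Axin2+ replicates 1 and 2.

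Centred in the same way, Cxcl12 gave r = 0.97 with the mean of 15 leukocyte markers, 0.92 with mesenchymal and 0.91 with endothelial markers. SP-C+ replicate 1 was the highest SP-C+ array in Cxcl12 and in all 3 lists. Cx3cl1 gave -0.84 with the endothelial markers. The 3 genes whose centred values were most like those of Cxcl1, among named genes brighter than the median gene, were Zswim7, Lbh and Gnb4 (r = 0.94, 0.94 and 0.93 over 10 arrays). For Cx3cl1 they were Mgmt, Ttc32 and Kalrn (r = 0.93 for each). Between groups Zswim7, Lbh and Gnb4 differed by -0.29, 0.43 and 1.45, against -0.92 for Cxcl1. Mgmt, Ttc32 and Kalrn differed by -0.08, -0.24 and -0.25, against 0.51 for Cx3cl1. These genes top a search over many genes and 10 arrays, in which high r values can arise from the search alone.

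**Figure D4:**
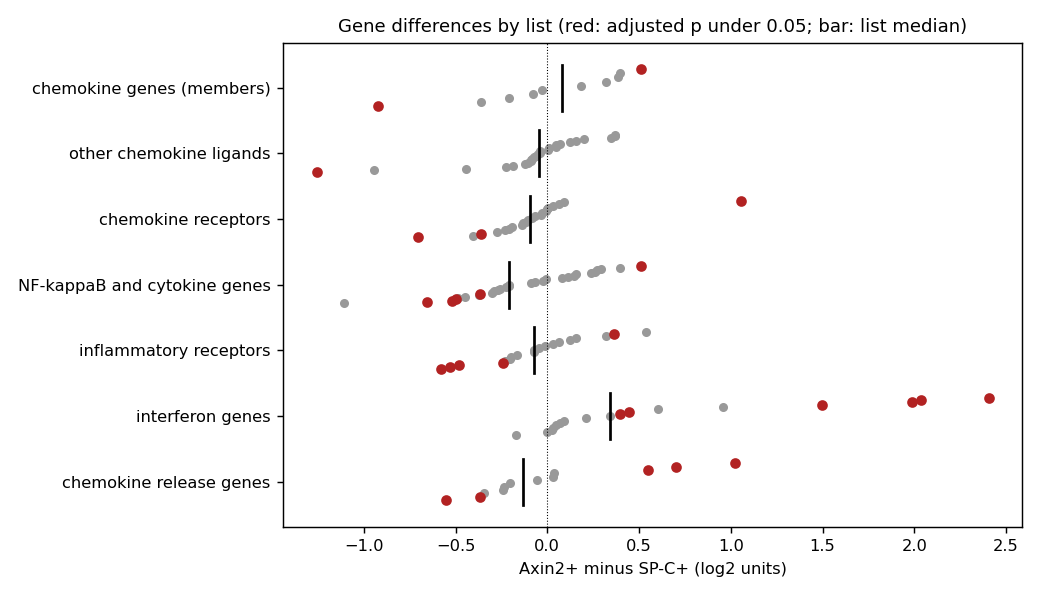
Differences between the groups (Axin2+ minus SP-C+, log2 units) of every measured gene of the chemokine list and of 6 related lists, with red for an adjusted p under 0.05 and a bar at the list median. Most ligands and receptors lie near 0, and the interferon genes reach 2.41.

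Of 26 other chemokine ligand genes measured, 0 were higher and 1 was lower in limma, with a median difference of -0.05. That is 3.85% called, against 17.6% of all genes, and 2 were higher and 4 lower at an unadjusted p under 0.05. Most of these ligands were dimmer than the median gene, so small changes in them may be missed. The 1 called was Ccl6, a ligand of myeloid cells, which measured 6.53, 4.53, 5.17, 6.33 and 6.31 in SP-C+ and 4.79, 4.64, 4.44, 4.49 and 4.23 in Axin2+ arrays (difference -1.26 ± 0.33 SE, adjusted p = 0.0181 in limma). The groups overlapped, SP-C+ replicates 1, 4 and 5 were high, and the call was lost without replicates 4 and 5 (-0.89, adjusted p = 0.103). Among 15 leukocyte markers 2 were called, both known from macrophages, and in opposite directions, though Adgre1 was dim (brightness percentile 23.7). This is 13.3% called, against 17.6% of all genes. Of the 15 differences 4 were positive, and their median was -0.11. Csf1r was higher (2.50 ± 0.15 SE, adjusted p = 8.25e-08 in limma), at 5.72 to 6.36 in SP-C+ and 8.31 to 8.99 in Axin2+ arrays, and Adgre1 was lower (-0.26 ± 0.08 SE, adjusted p = 0.0468), at 4.74 to 4.86 and 4.38 to 4.73. Their part in the Ccl6 values was not tested.

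Of 22 chemokine receptor genes measured, 1 was higher and 2 were lower, with a median of -0.10. This is 13.6% called, near the 17.6% of all genes. Ccr6, the receptor gene for Ccl20, was lower without overlap, at 5.45 to 6.10 in SP-C+ and 4.86 to 5.38 in Axin2+ arrays (-0.71 ± 0.13 SE, adjusted p = 0.00235 in limma). With SP-C+ replicates 1, 2 and 3 left out, Ccr6 was at -0.49 (adjusted p = 0.0513). Ccr7, a receptor of migrating lymphocytes and dendritic cells, was lower, at -0.36 ± 0.09 SE (adjusted p = 0.0163), a call lost without SP-C+ replicates 4 and 5 (0.0838). Ccrl2, an atypical receptor that binds chemerin, was higher by 1.05 ± 0.20 SE (adjusted p = 0.00259), from 5.39 to 6.43 in SP-C+ and from 6.38 to 7.40 in Axin2+ arrays.

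The remaining partner receptors did not pass. Cxcr4, which binds Cxcl12, measured 8.55, 9.65, 9.68, 8.69 and 9.15 in SP-C+ and 8.59, 8.42, 8.88, 8.96 and 8.83 in Axin2+ arrays (-0.41 ± 0.21 SE, adjusted p = 0.233 in limma). Cxcr1, Cxcr2, Cxcr3, Cxcr6, Ccr2 and Cx3cr1 had differences between -0.23 and 0.03, and Ackr1 and Ackr3, which scavenge or present chemokines, were at -0.12 and -0.03. Adjusted p-values of these 8 genes were 0.236 or more in limma.

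In the list of 29 NF-kappaB and cytokine genes 1 was higher and 4 were lower, with a median of -0.21. The 17.2% called is at the level of all genes, 17.6%. Nfkbiz, an inducible NF-kappaB cofactor, was lower, at -0.50 ± 0.13 SE (adjusted p = 0.0146 in limma), and Csf2, which encodes the macrophage growth factor GM-CSF, was at -0.52 ± 0.13 SE (adjusted p = 0.0172). Neither passed once SP-C+ replicates 1, 2 and 3 were left out, where the adjusted p was 0.240 for Nfkbiz and 0.273 for Csf2. Il1a, an interleukin 1 gene, was lower, at -0.66 ± 0.20 SE (adjusted p = 0.0358), which was lost in 5 of 10 fits that left out 1 array (up to 0.0867, without Axin2+ replicate 2). Ikbke, a kinase gene of innate signalling, was higher by 0.51 ± 0.14 SE (adjusted p = 0.0197), a call lost without Axin2+ replicate 1 (0.0512), Axin2+ replicate 5 (0.0511) or SP-C+ replicates 4 and 5 (0.0878). The list had 9 called genes without SP-C+ replicate 5, against 5 with all arrays.

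Among 19 receptors and adaptors that lead to these genes, 1 was higher and 4 were lower, with a median of -0.07. This is 26.3% called, against 17.6% of all genes. Tlr4, the endotoxin receptor gene, was lower without overlap, at 7.84 to 8.07 in SP-C+ and 7.21 to 7.44 in Axin2+ arrays (-0.58 ± 0.08 SE, adjusted p = 1.51e-04 in limma). Il1rap, the shared subunit of interleukin 1 receptors, was lower, at -0.53 ± 0.09 SE (adjusted p = 0.00135), but at -0.27 (adjusted p = 0.0810) as the mean over its probe sets. Myd88, the adaptor of both receptor families, was lower, at -0.48 ± 0.14 SE (adjusted p = 0.0334), a call lost in 6 of 10 fits without 1 array (up to 0.0822, without Axin2+ replicate 2) and at -0.18 without SP-C+ replicates 1, 2 and 3. Ifnlr1, a receptor gene for interferon lambda, was higher by 0.36 ± 0.08 SE (adjusted p = 0.00931).

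The called interferon-induced genes were all higher in Axin2+ arrays. Of 17 measured 6 were higher and 0 lower in limma (8 and 0 at an unadjusted p under 0.05), and the median was 0.34. This is 35.3% called, against 17.6% of all genes, of which 8.61% were called higher. The Axin2+ arrays were those in which 12 of 12 AEC1 and 10 of 11 ciliated markers were higher. Every gene called higher in Axin2+ arrays shares this, and the part of these markers in the interferon values was not tested. Ifit2 was 5.30-fold higher (2.41 ± 0.18 SE, adjusted p = 9.46e-07 in limma), Oasl2 4.10-fold (2.04 ± 0.27) and Usp18 3.96-fold (1.99 ± 0.15), all without overlap. Beside Cxcl10 at -0.36, the related genes Cxcl9 and Cxcl11 were at 0.37 ± 0.19 SE and -0.19 ± 0.12 SE, and 0 of these 3 passed (adjusted p = 0.529, 0.232 and 0.315 in limma).

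Of 12 genes that release, cut or anchor chemokines, 3 were higher and 2 lower in limma, with a median of -0.13. This is 41.7% called in a short list, against 17.6% of all genes. Adam10, the main constitutive sheddase of Cx3cl1 and Cxcl16, was 10.46 to 10.79 in Axin2+ and 9.87 to 10.19 in SP-C+ arrays, and was called higher (0.55 ± 0.09 SE, adjusted p = 7.47e-04 in limma). Adam17, the inducible sheddase, was at -0.24 ± 0.08 SE and did not pass (adjusted p = 0.0534), and Rhbdf2, which brings it to the cell surface, was lower, at -0.55 ± 0.09 SE (0.00115). Timp3, an inhibitor of metalloproteinases, was higher by 0.70 ± 0.11 SE (9.17e-04) and Mmp14, a membrane metalloproteinase gene, by 1.02 ± 0.13 SE (7.79e-05). Cpm, a carboxypeptidase gene of the cell membrane, was lower, at -0.37 ± 0.11 SE (0.0439), a call lost in 7 of 10 fits without 1 array (up to 0.102, without Axin2+ replicate 3). Adam10, Timp3 and Mmp14 were higher in the arrays in which AEC1 and ciliated markers were higher. That holds for every gene called higher in Axin2+ arrays, and the part of these markers in the values of the release genes was not tested.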

How the data were processed

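RNA of 10 samples, 5 per group, was extracted on columns, amplified from 100 ng and labelled with biotin for Affymetrix arrays, per the labels' protocols. What was deposited is 1 table of log2 expression for 41345 probe sets, normalized by the authors. Among tools, RMA, oligo and limma are named in the submitters' processing notes, with neither version nor role. For the probes no genome build is given in the sources used here, and the base of the logarithm rests on the values' range. Background signal in such values understates changes of dim genes. Depth does not apply to arrays, and their number limits the precision.

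The platform annotation gave 1 gene symbol to 23521 probe sets, several to 1814 and none to 16010. Per gene the probe set with the highest mean was kept, leaving 22180 genes, and 1082 genes had a choice. Arrays were grouped by title. No label says that replicates are separate animals, so p-values measure only how these samples spread, and that spread may be technical.

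The comparison of Axin2+ with SP-C+ arrays used lmFit and eBayes of limma 3.58.1 under R 4.3.3, two-sided and without covariates, over all genes, with Benjamini-Hochberg adjustment. Exact permutation tests ran over all 252 assignments. The fit was tested on simulated data. The members and gene lists were chosen with earlier results of these data known. The text names the 10 members, up to 3 called genes per direction from each related list, by size of difference, partner receptors, 3 genes most like each called member, and the sort markers. Alternatives were a replicate block, median centring, quantile normalization, filters at the 25th and 50th brightness percentiles, the mean over probe sets, a fit over all probe sets, array weights, a robust variance trend over intensity, a threshold of 0.01 and leaving out each array. Leaving out SP-C+ replicates 4 and 5, or 1, 2 and 3, was added after the values were seen. List genes without a probe set of their own symbol were not analysed here. Promoter sequences came from RefSeq (GRCm38.p6), searched on both strands with Python 3.11.15.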

Additional observations from a re-analysis of the deposited data

Results flagged for a closer look

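Each group of 5 arrays was searched for a highest or lowest array far from its neighbours, over 86 groups of values from 43 named genes. Chance flags about 1 in 20 such groups, and 5 were found. Cxcl10 was 6.97 in Axin2+ replicate 5, against 5.95 to 6.22 in the other Axin2+ arrays. Oasl2 was 8.28 in the same array, against 6.61 to 6.90. Cxcl12 was 6.69 in SP-C+ replicate 1, against 6.23 to 6.33 in the other SP-C+ arrays. Cx3cr1 was 7.21 in Axin2+ replicate 3, against 6.50 to 6.67 in the others. Ptprc was 4.24 in Axin2+ replicate 1, against 3.81 to 3.89 in the others.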

How the results depend on the processing

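Cxcl1 kept its direction and its call under all 22 alternatives. For any gene the direction could not change under the threshold, the replicate block, the brightness filters, the fit over all probe sets or the variance trend. The mean over probe sets leaves the values of a gene with 1 probe set, such as Cxcl1, as they are. Of all values of single genes under the alternatives, those of Cxcl1 included, 848 kept direction and side of the threshold, 52 fell short of it, 3 came to pass it and 21 changed sign. The sign changes were in genes that had not passed. Causes were not tested, apart from the fewer genes or arrays that an alternative leaves.

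At an adjusted p under 0.01 the calls were 0 members higher, 0 other ligands, 0 NF-kappaB and cytokine genes, 3 inflammatory receptors and 2249 genes in all. The replicate block gave 0 members higher (Cx3cl1, adjusted p = 0.0539 in limma), 2 other ligands, 3 NF-kappaB genes and 3 inflammatory receptors. No label says whether the numbers pair the arrays. Over all genes, deviations of same-numbered arrays gave r from -0.23 to 0.01. Such an r cannot settle this, as pairing that touches few genes would not show in it. Above the 25th brightness percentile 2 other ligands were called, and above the 50th 0 other ligands, 1 receptor and 1 interferon gene, since dimmer genes were left out. Median centring gave 3 other ligands and 8 release genes, and a fit over all probe sets 3 inflammatory receptors. Without SP-C+ replicates 4 and 5, a split chosen after the values were seen, there were 2 members lower (Cxcl1 and Cxcl10), 2 other ligands and 9 NF-kappaB genes. Without SP-C+ replicates 1, 2 and 3 there were 4 other ligands and 3 inflammatory receptors.

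Leaving out each array gave 0 to 2 members higher, 1 to 2 other ligands, 4 to 9 NF-kappaB genes, 3 to 6 inflammatory receptors, 4 to 7 release genes and 2974 to 4023 genes in all. It moved Ackr3 from -0.12 to 0.13, Ccr2 from -0.050 to 0.061 and Cx3cr1 from -0.10 to 0.084.

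Quantile normalization turned Cxcl15 to 0.056, Ccr2 to 0.0034 and Cx3cr1 to -0.021, median centring turned Cx3cr1 to -0.0028, and array weights turned Ackr3 to 0.017. Without SP-C+ replicates 4 and 5, Ccl2 was 0.0072, Ccr2 0.055 and Cxcr6 0.026. Without SP-C+ replicates 1, 2 and 3, Cxcl10 was 0.44, Ackr3 0.067, Cxcr1 0.00022, Cxcr3 0.044 and Pecam1 0.25. Signal over background limits Cxcl5, Cxcl12, Ccl2, Ccl20, most receptors and most of the other ligands. These were dimmer than the median gene, so small changes in them may be missed.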

Other observations

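Axin2+ replicate 5 stood above the other Axin2+ arrays in a set of inflammatory and interferon-gamma-induced genes, which were picked after their values were seen. Saa3, an acute phase gene, was 9.47 there and 5.65 to 6.77 in the other Axin2+ arrays. Iigp1, an interferon-induced GTPase gene, was 8.60 against 4.94 to 5.32. Cxcl9 was 6.19 against 4.97 to 5.23, and Cxcl5 was 6.50 against 4.86 to 5.52. The mean of the 17 interferon genes was 7.29 in that array, against 6.62 to 6.71 in the other Axin2+ and 6.08 to 6.22 in the SP-C+ arrays. Without it the Oasl2 difference was 1.73 and Ifit2 and Usp18 still passed (adjusted p at most 7.61e-06 over all fits without 1 array).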
